A study of Mus musculus with 8 samples.

Results

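The 10 genes followed here set or carry epithelial identity. They are the grainyhead-like factors Grhl1, Grhl2 and Grhl3, the zinc-finger factors Ovol1 and Ovol2, the ETS factors Elf3 and Ehf, the splicing regulators Esrp1 and Esrp2, and the adhesion gene Cdh1. They were taken by symbol from the deposited count table, and all 10 were found among its 55536 genes. RNA was measured in MIN6, a mouse insulin-producing β-cell line labelled WT, 48 h after transfection with Lipofectamine 3000. Control cells received the vector pcDNA 3 without an insert (4 libraries), and Klf4 cells received pGloMyc-Klf4, which carries the transcription factor Klf4 (4 libraries). Going by the names, the backbones of these plasmids differ, so the backbone and Klf4 cannot be told apart. Replicates 1 and 2 of both groups were batch 1 and replicates 3 and 4 were batch 2, and the series calls them biological replicates. The extraction text names isolated islets, whereas every sample is named as Min6.

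Epithelial cells form sheets held together by E-cadherin, the product of Cdh1, whose cytoplasmic end binds catenins at adherens junctions. Grainyhead-like and Ovol factors are known to hold epithelial cells in that state, in part by activating junction genes and by repressing Zeb factors, while Zeb, Snai and Twist factors repress Cdh1. Elf3 and Ehf are ETS factors of epithelia, and the Esrp proteins direct epithelial forms of splicing. Islet cells, β-cells included, are themselves epithelial in origin and use E-cadherin to adhere to each other.

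Total counts per library lay between 45417853 and 52731176, and TMM scaling factors between 0.996 and 1.01. Levels are given as TMM-scaled CPM (read counts relative to the library size), and log2 fold changes as Klf4 over control from a fit with a batch term. A gene was called where edgeR's quasi-likelihood test gave a Benjamini-Hochberg adjusted p under 0.05 over all 18266 genes that passed the count filter. Klf4 itself was counted 2014, 2060, 1929 and 1743 times in the control libraries and 251826, 205171, 257862 and 308667 times in the Klf4 libraries, a log2 fold change of 6.97 (SE 0.07), with plasmid and endogenous transcripts counted together. The number of genes with at least 1 count was 24509 to 25446 in control and 26414 to 27216 in Klf4 libraries. Of the β-cell markers, all 10 passed the filter, 5 were called lower and 5 were not called, against 15.5% of all tested genes called lower. The called changes were small, with log2 fold changes from -0.07 for Iapp to -0.22 for Slc30a8. The summed level of the 10 markers was 31577 to 39570 CPM in control and 29517 to 39871 CPM in Klf4 libraries. In bulk RNA a change in the number of cells that express a gene and a change in RNA per cell cannot be told apart.

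Of the 10 genes, 9 were higher in the Klf4 libraries, 0 were lower and 1, Ehf, was not called. Across all tested genes 21.1% were called higher (3856) and 15.5% lower (2828), a split that became 4277 and 1805 with scaling factors from abundant genes. The median log2 fold change was 1.37 over the 10 genes and -0.01 over all tested genes. Setting Esrp1 to its lower bound could not move this median, since the bound is still among the largest changes of the 10 genes. All 10 passed the count filter, but Grhl2, Ovol1 and Esrp1 reached its minimum in every library of the Klf4 group only. For these 3 the filter itself favours a difference. All 4 Klf4 libraries lay above all 4 control libraries for 7 of the 10 genes, against 17.2% of all tested genes. Ovol2 and Cdh1 overlapped between the groups over all libraries but not within either batch. Within both batches 9 of the 10 genes separated in this direction, against 22.1% of all tested genes. The 10 genes were chosen with earlier results of these data known, so these counts are a description. The summed level of the 10 genes was 210.1, 210.6, 145.9 and 150.8 CPM in control replicates 1 to 4 and 294.1, 294.8, 253.5 and 256.8 CPM in the Klf4 replicates, and most of it was Cdh1 in every library.

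**Figure D1:**
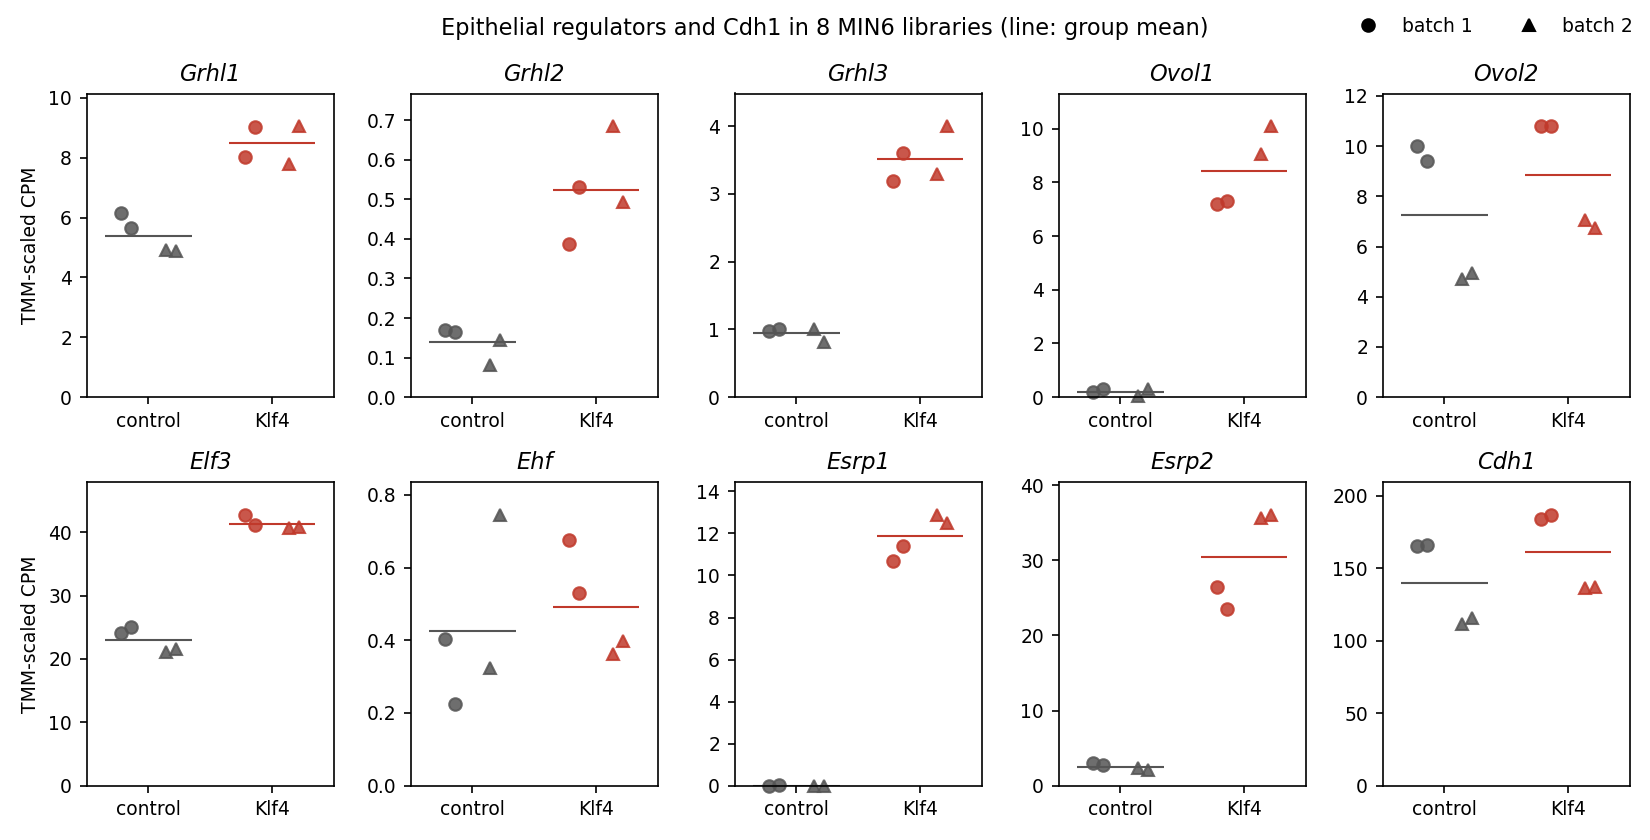
TMM-scaled CPM (vertical axis, linear from 0, a scale of its own for each gene) of the 10 genes in the 4 control and 4 Klf4 libraries; circles are batch 1, triangles batch 2, and lines are group means. Esrp1 sits at or near 0 in control and between 10.7 and 12.9 CPM with Klf4, whereas the Cdh1 points separate by batch at least as much as by group.

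The promoters of Grhl1, Grhl3, Ovol2 and Elf3 were in the RefSeq promoter table (GRCm38.p6) and were searched because KLF4 is known to bind CACCC boxes. Below are the 250 bases before the RefSeq start of the 3 genes with a single entry. CACCC, or GGGTG where the box lies on the other strand, is in capitals. The gene spans given further below come from GENCODE, whose starts can differ from those of RefSeq. By those spans the Ovol2 stretch lies inside the gene, and so does part of the Elf3 stretch.
Grhl3 (chr4:135573633-135573882, minus strand): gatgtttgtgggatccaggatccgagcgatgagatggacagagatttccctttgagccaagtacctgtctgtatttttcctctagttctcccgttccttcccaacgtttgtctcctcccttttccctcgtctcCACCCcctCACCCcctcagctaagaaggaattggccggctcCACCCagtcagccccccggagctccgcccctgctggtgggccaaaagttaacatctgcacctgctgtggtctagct
Ovol2 (chr2:144331363-144331612, minus strand): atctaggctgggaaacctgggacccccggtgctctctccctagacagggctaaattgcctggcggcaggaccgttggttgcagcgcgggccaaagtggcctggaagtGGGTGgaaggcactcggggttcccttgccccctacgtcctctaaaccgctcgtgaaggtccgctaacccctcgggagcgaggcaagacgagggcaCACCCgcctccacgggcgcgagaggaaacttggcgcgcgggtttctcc
Elf3 (chr1:135258473-135258722, minus strand): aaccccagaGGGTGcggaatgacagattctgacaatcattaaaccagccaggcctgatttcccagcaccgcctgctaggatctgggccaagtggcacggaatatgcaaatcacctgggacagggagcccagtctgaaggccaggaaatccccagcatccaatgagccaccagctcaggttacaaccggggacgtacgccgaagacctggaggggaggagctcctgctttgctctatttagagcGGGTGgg
Grhl3 had 3 matches, Ovol2 had 2 and Elf3 had 2. Grhl1 had a pair of entries, with 0 and 2 matches. CACCC on either strand was found in 57.5% of all 32851 promoter windows of the table, each of 300 bases, so most promoters of the table hold one. The Zeb and Snai type box CACCTG, searched on both strands of the full 300 bases, occurred 2 times at Grhl3, 1 time at Elf3 and 0 times at Ovol2, against 20.2% of all windows with at least 1. The grainyhead-like site AACCGGTT was in 0 of these windows and in 0.146% of all, and CCGTTA, a core of Ovol sites, in 0 and in 2.76%. A match of letters is a description of the sequence and not evidence of binding.

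Among the grainyhead-like factors all 3 were higher with Klf4, and Grhl2 and Grhl3 rose more than 3-fold in mean level. Grhl1 (chr12:24572283-24617391, plus strand, GRCm38) encodes a factor known for its role in desmosomal genes of the epidermis. Its level was 6.16, 5.65, 4.93 and 4.87 CPM in control replicates 1 to 4 and 8.03, 9.03, 7.78 and 9.06 CPM in the Klf4 replicates. The lowest Klf4 library stood above the highest control library. The means were 5.40 ± 0.618 and 8.48 ± 0.669 CPM (SD, n = 4 each), with a log2 fold change of 0.65 (SE 0.09, adjusted p = 2.6e-06).

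Grhl2 (chr15:37233036-37363569, plus strand) is a direct activator of Cdh1 in other epithelia, and it was the second-lowest of the 10 genes per exonic length in control cells. It was counted 8, 8, 4 and 7 times in the control libraries and 20, 24, 36 and 26 times in the Klf4 libraries. These few counts still separated the groups without overlap. The mean level went from 0.14 ± 0.0407 to 0.524 ± 0.123 CPM (SD, n = 4 each), a log2 fold change of 1.88 (SE 0.38, adjusted p = 0.00035). In batch 1 alone the log2 fold change was 1.43 and the call was lost (edgeR, adjusted p = 0.0524). Even with Klf4, Grhl2 remained below 1 CPM in every library.

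Grhl3 (chr4:135541888-135573630, minus strand) is known for its part in neural tube closure and the epidermal barrier. It was counted 46, 49, 50 and 39 times in the control libraries and 165, 163, 173 and 211 times in the Klf4 libraries. No Klf4 library was near the control range. Its mean level rose from 0.951 ± 0.097 to 3.52 ± 0.364 CPM (SD, n = 4 each), a log2 fold change of 1.88 (SE 0.15, adjusted p = 6.59e-10) that was 1.77 in batch 1 and 2.00 in batch 2. The ratio of Grhl1 to Grhl3, each in CPM per exonic kb, fell from between 2.45 and 3.17 in the control libraries to between 1.14 and 1.27 in the Klf4 libraries. The Grhl1 and Grhl3 levels per kb overlapped in the Klf4 group and not in the control group.

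The Ovol genes, which encode zinc-finger repressors that counter mesenchymal transition, were both called higher, from very different control levels. Ovol1 (chr19:5549136-5560646, minus strand), known from hair and epidermal differentiation, was close to the detection limit in control cells, with 9, 15, 2 and 14 counts. The Klf4 libraries held 371, 331, 477 and 532 counts. Mean levels were 0.207 ± 0.123 and 8.41 ± 1.41 CPM (SD, n = 4 each), a 40.5-fold ratio of means and a log2 fold change of 5.32 (SE 0.20, adjusted p = 1.56e-15). Ovol1 shares 22.0% of its exonic bases with other annotated genes. The tested one, Gm31166, had 40 to 76 counts over the 8 libraries and a log2 fold change of -0.04 (edgeR, adjusted p = 0.929).

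Ovol2 (chr2:144305175-144332146, minus strand), which is needed for epithelial integrity in the embryo, had a level of 10, 9.39, 4.71 and 4.93 CPM in the control libraries. In the Klf4 libraries it was 10.8, 10.8, 7.04 and 6.73 CPM. Batch divided these values more than the plasmid did, and the groups overlapped except within a batch. The means were 7.27 ± 2.84 and 8.83 ± 2.25 CPM (SD, n = 4 each), and the log2 fold change with the batch term was 0.31 (SE 0.08, adjusted p = 0.00462). It was 0.15 in batch 1 and 0.51 in batch 2. The call was lost in batch 1 alone, with a log2 fold change of 0.14 (edgeR, adjusted p = 0.302), and in the fit with no batch term (adjusted p = 0.507). Ovol2 shares 17.0% of its exonic bases with the antisense gene 1700108N11Rik. That gene had 4 to 27 counts over the 8 libraries and a log2 fold change of 0.26 (edgeR, adjusted p = 0.68).

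Per exonic kb, Ovol2 exceeded Ovol1 between 28.1-fold and 191.5-fold in the control libraries, the upper value resting on the 2 Ovol1 counts of control replicate 3. In the Klf4 libraries the ratio was between 1.10 and 2.47. The change in this ratio came mostly from Ovol1, the low one of the pair in control cells.

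Of the ETS pair, Elf3 was called higher and Ehf was not called, and the difference between them was not tested. Elf3 (chr1:135253575-135258568, minus strand), an epithelium-specific activator, was the most expressed of the transcription factors followed here. Its level was 24.1, 25.1, 21.1 and 21.6 CPM in the control libraries and 42.8, 41.2, 40.6 and 40.8 CPM in the Klf4 libraries. All Klf4 values were close to each other and well above every control value. The log2 fold change was 0.85 (SE 0.04, adjusted p = 4.22e-13), on means of 23.0 ± 1.96 and 41.3 ± 1.01 CPM (SD, n = 4 each). Elf3 shares 7.31% of its exonic bases with the antisense gene Gm26642, which did not pass the count filter.

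Ehf (chr2:103263433-103303278, minus strand), its relative in secretory and stratified epithelia, was the gene without a call. It was counted 19, 11, 16 and 36 times in the control libraries and 35, 24, 19 and 21 times in the Klf4 libraries. The highest of all 8 values was a control library, and the groups overlapped. The log2 fold change was 0.21 (SE 0.36, approximate 95% interval -0.49 to 0.91, edgeR's adjusted p = 0.706), an interval that holds both a rise and a fall. Within batches the estimate was 0.94 and -0.49. The direction also turned without control replicate 2, to -0.08, and without Klf4 replicate 1, to -0.02.

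The Esrp genes, whose RNA-binding proteins direct exon choice in epithelial cells, had 2 of the 3 largest changes of the 10 genes. Esrp1 (chr4:11331933-11386783, minus strand) was counted 0, 1, 0 and 0 times in the control libraries. The Klf4 libraries held 554, 514, 677 and 660 counts, or 10.7, 11.4, 12.9 and 12.5 CPM. A gene with a single read in 4 control libraries was thus above 10 CPM in every Klf4 library. Against a floor of 3 counts per library, which is 0.0621 CPM, Esrp1 was at least 191.1-fold higher with Klf4, where its mean was 11.9 ± 1.00 CPM (SD, n = 4). The adjusted p of edgeR's quasi-likelihood test was 1.31e-19. The fitted log2 fold change of 10.59 depends on the small prior count of the fit.

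Esrp2 (chr8:106130319-106136974, minus strand) was already expressed in control cells, at 2.97, 2.71, 2.31 and 2.15 CPM. With Klf4 it was at 26.5, 23.5, 35.7 and 36.1 CPM. The groups were far apart, and the Klf4 libraries of batch 2 stood above those of batch 1. The ratio of the means, 30.5 ± 6.40 over 2.54 ± 0.373 CPM (SD, n = 4 each), was 12.0, and the log2 fold change was 3.57 (SE 0.11, adjusted p = 2.65e-17). Esrp2 shares 7.79% of its exonic bases with Nfatc3 and 1810019D21Rik on the opposite strand, and the strand setting of the counting was not given in the sources used here. Nfatc3 had a log2 fold change of -0.09 (edgeR, adjusted p = 0.0542), while 1810019D21Rik rose from 35, 32, 24 and 26 to 146, 108, 95 and 146 counts, a log2 fold change of 2.02 (adjusted p = 1.63e-08). Reads of Esrp2 and 1810019D21Rik in the shared bases cannot be told apart, and their part in the Esrp2 result was not tested.

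With Klf4 the Esrp2 level per exonic kb was 3.01 to 4.19 times that of Esrp1. Counts per gene do not show which exons were used. Of 7 genes known as splicing targets of the Esrp proteins, 2 were higher, 2 lower and 3 not called, with a median log2 fold change of -0.02, counts near those of the whole table, where 21.1% of genes were higher and 15.5% lower. For Cd44, a hyaluronan receptor, the log2 fold change was 0.79 (SE 0.05, edgeR's adjusted p = 2.3e-11). Enah, an actin regulator and the most abundant of the list, had -0.13 (adjusted p = 0.0006), a call lost with no batch term (0.161). Arhgef11, a guanine nucleotide exchange factor, had -0.12 (edgeR's adjusted p = 0.00482), a call lost in batch 2 alone (0.116).

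Cdh1 (chr8:106603351-106670246, plus strand) was the highest of the 10 genes per exonic length in both groups and changed little. Its level was 165.0, 166.0, 111.4 and 115.3 CPM in control replicates 1 to 4. The Klf4 replicates were at 183.9, 186.9, 136.2 and 136.7 CPM. Within each batch both Klf4 libraries lay above both control libraries, but batch 2 with Klf4 lay below batch 1 without it. The means were 139.4 ± 30.1 and 160.9 ± 28.3 CPM (SD, n = 4 each), a ratio of 1.15, and the log2 fold change was 0.21 (SE 0.03, adjusted p = 3.4e-06). It was 0.16 in batch 1 and 0.27 in batch 2. Without the batch term the log2 fold change was again 0.21 but not called (edgeR, adjusted p = 0.381).

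Cdh2, which encodes N-cadherin, the other main cadherin of islet cells, stood at a smaller log2 fold change, 0.09 (SE 0.03, edgeR's adjusted p = 0.0162). Its call was lost whichever control library was left out (adjusted p from 0.0623 to 0.103) and without Klf4 replicate 2 (0.0605) or 3 (0.159). The Cdh2 call was also lost with no batch term (0.0922) and in batch 1 alone (0.279). The ratio of Cdh1 to Cdh2, each in CPM per exonic kb, was 1.04 to 1.58 in the control and 1.16 to 1.69 in the Klf4 libraries. Within batch 1 it was 1.56 to 1.58 in control and 1.67 to 1.69 with Klf4, and within batch 2 it was 1.04 to 1.10 and 1.16 to 1.23, so the groups overlapped over both batches but not within either.

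**Figure D2:**
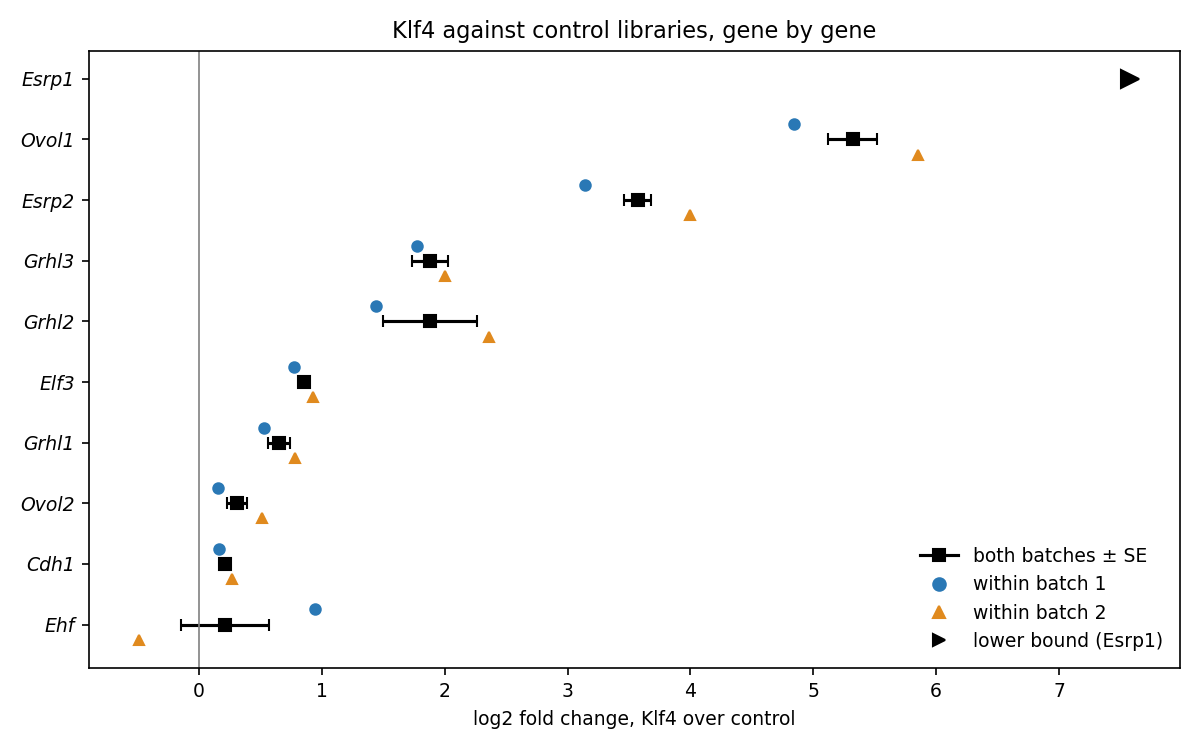
Log2 fold change of Klf4 over control libraries (horizontal axis) for each gene, with squares for both batches together ± SE, circles for batch 1 and triangles for batch 2; the arrowhead of Esrp1 is its lower bound. Changes run from 0.21 for Cdh1 to above 5 for Ovol1 and Esrp1, and the within-batch values of Ehf, 0.94 and -0.49, lie on opposite sides of 0.

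A test of the plasmid effect between the batches called 1 of the 10 genes, Esrp2, against 0.766% of all tested genes (140 genes, with 1942 at an unadjusted p under 0.05). The Esrp2 log2 fold change was 3.14 in batch 1 and 4.00 in batch 2, a difference of 0.87 (edgeR, adjusted p = 0.00302). Klf4 counts themselves differed in the same direction, with an effect larger by 0.37 in batch 2 (adjusted p = 0.0057), and the part of that difference in the Esrp2 result was not tested. The interaction was 0.37 for Ovol2 (edgeR, unadjusted p = 0.0203, adjusted p = 0.341) and -1.43 for Ehf (unadjusted p = 0.0365, adjusted p = 0.421).

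Batch 2 differed from batch 1 for some of the genes in both groups. With the plasmid term in the fit, 2 of the 10 genes were called lower in batch 2, against 11.6% of all tested genes, and 1 was called higher, against 13.4%. The lower genes were Ovol2, with a log2 difference of -0.82 (SE 0.08, edgeR's adjusted p = 2.11e-07), and Cdh1, with -0.49 (SE 0.03, adjusted p = 6.34e-11). In both genes the batch difference was larger in size than the plasmid effect. Esrp2 was called higher in batch 2, by 0.33 (edgeR's adjusted p = 0.0207), although its control libraries were lower in batch 2 than in batch 1. Its control mean was 2.84 CPM in batch 1 and 2.23 CPM in batch 2, and its Klf4 mean 25 and 35.9 CPM. The value of 0.33 is thus not a shift shared by both groups. For Elf3 the difference was -0.12 (adjusted p = 0.0531).

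Per exonic length the order of the genes changed with Klf4. In control cells the mean level was 30.5 ± 6.59 CPM per kb for Cdh1, 10.4 ± 0.884 for Elf3 and 3.44 ± 1.35 for Ovol2 (SD, n = 4 each). Grhl1 followed at 0.975 ± 0.112, Esrp2 at 0.585 ± 0.086 and Grhl3 at 0.341 ± 0.0348 CPM per kb. Each of these 6 stood apart from its neighbours in the order without overlap between libraries. Ehf, Ovol1 and Grhl2 came next at 0.0762, 0.0595 and 0.0163 CPM per kb, where Ehf overlapped Ovol1 and Ovol1 overlapped Grhl2, and Esrp1 was last.

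With Klf4, Cdh1 and Elf3 kept the first places at 35.2 ± 6.19 and 18.7 ± 0.456 CPM per kb (SD, n = 4 each). Esrp2 was the third at 7.02 ± 1.47 CPM per kb, above Ovol2 at 4.18 ± 1.06. Ovol1 reached 2.41 ± 0.404 and Esrp1 1.88 ± 0.159 CPM per kb. Both stood above Grhl1, at 1.53 ± 0.121, whose libraries overlapped those of Grhl3, at 1.26 ± 0.131. Ehf and Grhl2 were lowest, at 0.0882 ± 0.0257 and 0.0608 ± 0.0143 CPM per kb, and overlapped each other.

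**Figure D3:**
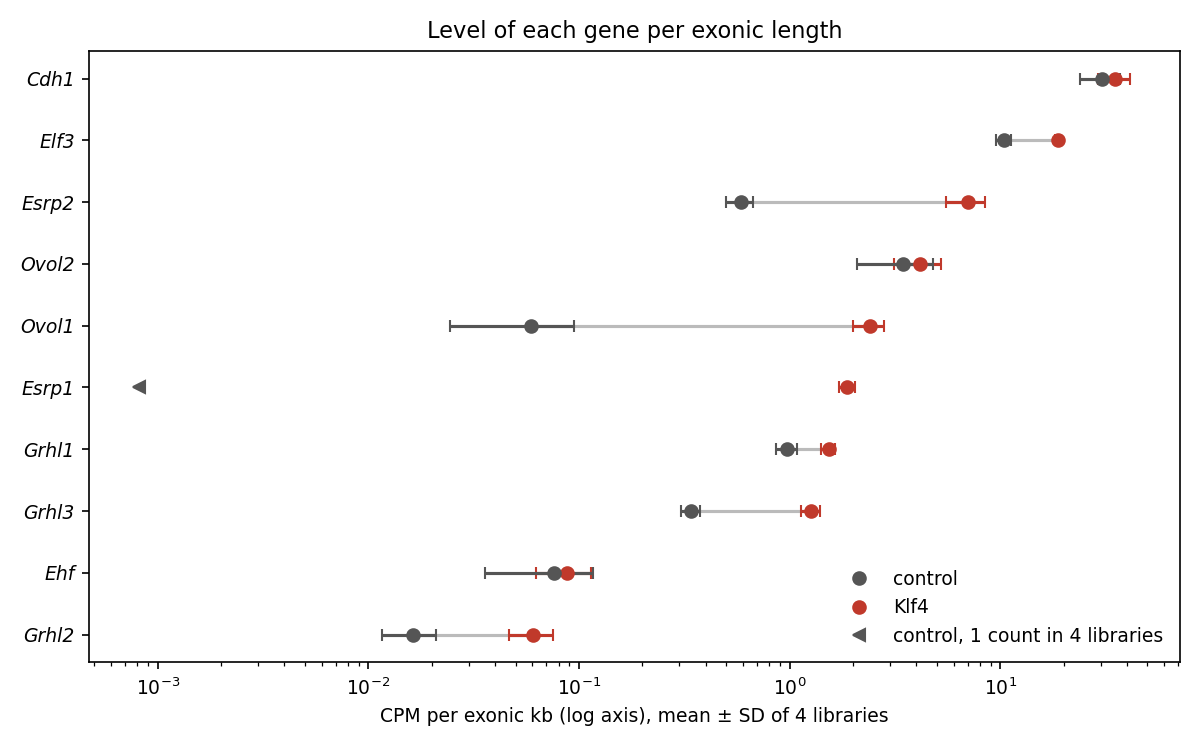
Mean CPM per exonic kb (horizontal log axis, bars ± SD, n = 4) of the 10 genes in control (grey) and Klf4 (red) libraries, ordered by the Klf4 level; the arrowhead marks Esrp1 in control, with 1 count in 4 libraries. Esrp2, Ovol1 and Esrp1 move past Grhl1 while Cdh1 and Elf3 stay on top.

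For this and the next lists the shares to read against are again 21.1% of all tested genes higher and 15.5% lower. A list of family relatives of the 10 genes, which also held the splicing factor Rbfox2 of another family, had 10 genes. Of these, 9 were tested, 4 were higher, 2 lower and 3 not called, with a median log2 fold change of 0.35, and 1 of the higher genes, Spdef, passed the count filter through the Klf4 group only. Elf4, an ETS factor best known from lymphoid cells, was the most changed of the well-expressed ones, at 9.14 ± 0.655 CPM with Klf4 (SD, n = 4) and a log2 fold change of 1.70 (SE 0.10, edgeR's adjusted p = 6.5e-12). Rbfox2 was the most abundant and had -0.07 (SE 0.03, adjusted p = 0.0323). Its call was lost under the replicate block (adjusted p = 0.0514), without Klf4 replicate 1 (0.0609) or 4 (0.0661), with factors from abundant genes (0.208), with no batch term (0.121), with a filter of 1 CPM (0.0563) and in batch 1 (0.184) or batch 2 (0.190) alone.

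Of 10 other epithelial transcription factors, 8 were tested, 6 were higher, 0 lower and 2 not called, with a median log2 fold change of 0.49. The count of higher genes was 3 with no batch term and 3 in batch 1 alone. For Foxa1, a pioneer factor of endoderm, the log2 fold change was 0.63 (SE 0.14, edgeR's adjusted p = 0.00134), a call lost in batch 1 alone (0.0926) and with no batch term (0.0574). Foxa2, the most abundant of the list at 61.2 CPM with Klf4, was not called (-0.00, adjusted p = 0.982). Tfap2a, Gata3 and Tfap2c, named after their values were seen, had at most 3 counts in any control library and were at least 29.1-fold, 26.8-fold and 8.42-fold higher with Klf4, the group through which alone they passed the count filter. The epidermal regulator Trp63 was at 0 counts in all 8 libraries.

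Of 14 adherens junction partners, all tested, 8 were higher, 0 lower and 6 not called, with a median log2 fold change of 0.16, and 5 were higher in batch 1 alone. The largest change was that of Nectin4, an adhesion receptor of the nectin family, at 0.88 (SE 0.07, edgeR's adjusted p = 1.62e-09). The smallest called was that of Afdn, the actin linker of nectins, at 0.15 (SE 0.03, adjusted p = 0.000955), a call lost in batch 1 alone (0.0877). Ctnnb1, which encodes β-catenin and was the most abundant, was not called, with a log2 fold change of 0.05 (adjusted p = 0.147).

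Epithelial effector genes, among them known targets of grainyhead-like and ETS factors, formed the longest list. Of 22 such genes, 18 were tested, 14 were higher, 0 lower and 4 not called, with a median log2 fold change of 1.07. Of the 14, 6 passed the count filter through the Klf4 group only, Cldn4 among them. Cldn4, a tight junction claudin, had at most 3 counts in any control library and 5.19 ± 0.195 CPM with Klf4 (SD, n = 4), at least 83.6-fold higher (edgeR, adjusted p = 5.89e-16). Krt8, a keratin of simple epithelia and the most abundant of the list, reached 213.1 ± 14.7 CPM with a log2 fold change of 1.45 (SE 0.07, adjusted p = 3e-13). Marveld3, a tight junction protein, had the smallest called change at 0.12 (SE 0.04, adjusted p = 0.0322). That call was lost with the DESeq2 Wald test (adjusted p = 0.0532) and whichever library other than Klf4 replicate 3 was left out (edgeR, 0.0572 to 0.201). It was also lost in edgeR with no batch term (0.110), with no filter (0.0940) and in batch 2 alone (0.401).

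Cdh1 repressors and mesenchymal genes formed the list with opposite known roles. Of 13 genes, 9 were tested, 5 were higher, 0 lower and 4 not called, with a median log2 fold change of 0.21, and 3 were higher in batch 1 alone. Of the 5, Vim and Twist2 passed the count filter through the Klf4 group only. Zeb2, a repressor of Cdh1, rose to 23.5 ± 2.18 CPM (SD, n = 4) with a log2 fold change of 0.47 (SE 0.05, edgeR's adjusted p = 2.55e-07), while its relative Zeb1 had -0.09 (adjusted p = 0.0936). Among the higher genes were also Snai1, at 1.43 (adjusted p = 9.47e-05), and the intermediate filament gene Vim, at 4.47 (adjusted p = 8.51e-13), both named after their values were seen. Snai1 was low, at 0.573 CPM in control and 1.54 CPM with Klf4 on average. Its relatives Snai2, at 0.11, and Snai3, at 0.21, were not called (edgeR's adjusted p = 0.629 and 0.738). Some genes known to activate and some known to repress Cdh1 were thus higher in the same libraries.

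**Figure D4:**
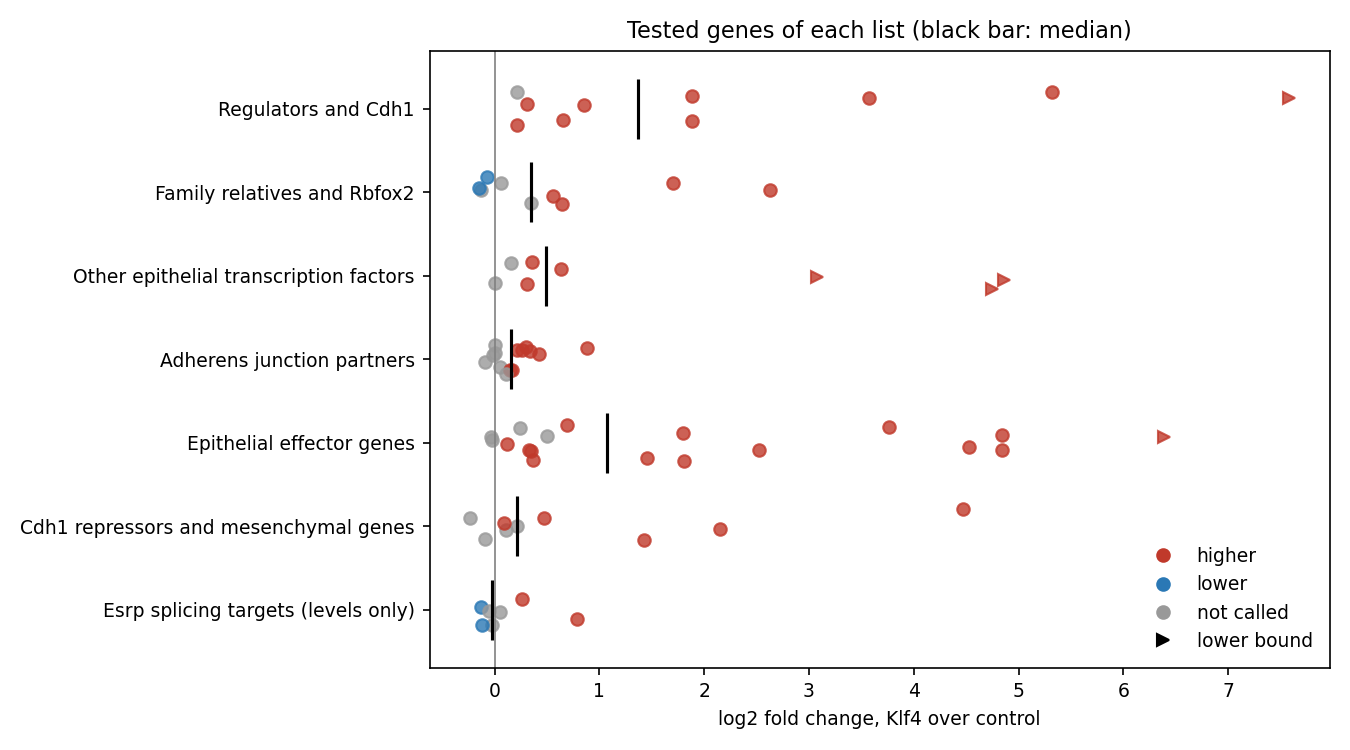
Log2 fold change of Klf4 over control (horizontal axis) for each tested gene of the 10 genes and of 6 related lists; red is called higher, blue called lower, grey not called, arrowheads are lower bounds, vertical place within a row is arbitrary and black bars are medians. The medians are 1.37 for the 10 genes, 1.07 for the epithelial effectors and between -0.02 and 0.49 for the other lists.

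Some markers of other cell types moved with these results. The summed level of 6 keratinocyte markers was 3.82 to 4.24 CPM in control and 21.6 to 33.2 CPM in Klf4 libraries, and of 2 tested 1 was higher. Nearly all of that difference was Krt14, at 0.00518 CPM in control and 23.1 CPM with Klf4 on average, and the defining markers Trp63 and Ivl were at 0 counts throughout. The sum of 6 fibroblast markers was 2.61 to 3.84 CPM in control and 21 to 27.4 CPM with Klf4, and 3 of 4 tested were higher. Most of the difference was Dcn, at 0.0461 CPM in control and 17.6 CPM with Klf4 on average, while Col1a2 was not called and Lum was at 0. The sum of 6 duct markers was 56.1 to 87.5 CPM in control and 72.3 to 111.0 CPM with Klf4, ranges that overlapped, and 3 of 4 tested were higher. Most of this sum was Krt7, at 68.4 CPM in control and 85.9 CPM with Klf4 on average. The counts of higher markers stand against 21.1% of all tested genes. Krt14, Dcn, Pdgfra, Krt19 and the endothelial gene Cdh5, all of them higher, passed the count filter through the Klf4 group only. Acinar marker sums also overlapped between the groups, at 11.4 to 13.4 and 10.6 to 14.7 CPM. Leukocyte sums overlapped too, at 5.94 to 6.55 and 5.97 to 7.40 CPM. The endothelial sums did not overlap, at 4.10 to 4.42 CPM in control and 5.01 to 5.28 CPM in Klf4 libraries. Of 3 endothelial markers tested 1 was higher, Cdh5, with 0 counts in every control library and 14 to 28 in the Klf4 libraries. The part of these markers in the results above was not tested.

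The genes whose log2 CPM was most like that of each regulator over the 8 libraries were found by Pearson's r among 12862 well-expressed genes. The libraries share batch and group, so these values are a description. For Cdh1 they were Mcf2l (r = 0.995), Myo15b (0.992) and Cpne2 (0.992), and r was above 0.95 for 0.762% of the genes. For Ovol2 they were Zfand2a (0.995), Plat (0.993) and Meltf (0.989). For Esrp2 they were Itpka, Nol4l and Prkcd, with r above 0.95 for 7.16% of the genes. Itpka, an inositol trisphosphate kinase gene, had a log2 fold change of 4.29. It was picked for its likeness to Esrp2 over these same libraries, so a difference between the groups followed from that choice.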

How the data were processed

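Polyadenylated RNA was sequenced from 8 MIN6 libraries, 4 per group, using a Tecan mRNA library kit, per the labels' protocols. The values are read counts per gene, whole numbers that the authors deposited without normalisation, 1 column per library. The submitters' processing notes name FastQC, STAR, featureCounts and edgeR and the build mm10. Trimming with cutadapt is known from the name of the deposited table. The strand setting was not given in the sources used here, so reads of overlapping or antisense genes cannot be told apart. All 55536 identifier and symbol pairs were those of GENCODE M21 (GRCm38), which gave coordinates and exonic lengths, and promoters were those of RefSeq (GRCm38.p6).

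Genes were kept by filterByExpr with a minimum count of 10, which left 18266 and removed 37270. Counts were scaled by TMM and tested with edgeR 4.0.16 (quasi-likelihood, batch and plasmid terms, the design the series names) under R 4.3.3 with limma 3.58.1. P-values were adjusted by Benjamini-Hochberg over all tested genes, and SEs are of the log2 fold change. The alternatives were DESeq2 1.42.0, limma-voom, other scalings, filters and thresholds, single batches and the omission of each library. The members and lists were chosen with earlier results of these data known. Ctnnd1 is in 2 lists, and Krt19, Sox9 and Trp63 are among the list genes that are also cell type markers. Results of some single list genes are not reported here, and the counts of whole lists include them. Named beside the members were, for each list, the called genes of largest and smallest change (average log2 CPM 1 or more) and the most abundant gene. P-values cover the spread between these libraries.

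The replicate numbers follow the batches. Same-numbered libraries of the groups deviated together over 10485 genes (r = 0.64, 0.48, 0.59 and 0.56), but so did differently numbered libraries of a batch (mean 0.56). The mean between batches was -0.56, which follows from these values, since deviations were taken from the mean of each group. The difference between the libraries of a batch, control against Klf4, had r = -0.05 in batch 1 and 0.09 in batch 2. Pairs within a group differed by more than counting error, the chi-square over its degrees of freedom being 3.96 to 5.31 for libraries of 1 batch and 15.8 to 21.1 for libraries of different batches.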

Additional observations from a re-analysis of the deposited data

Results flagged for a closer look

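Esrp1 had 1 count, or 0.0205 CPM, in control replicate 2 and 0 in the other control libraries, so that this library stood alone in its group. Of 22 groups of values checked in this way, 1 was picked out, and chance alone gives about 1.1. That rate does not hold for Esrp1 in control, since a single read among counts of 0 is always picked out. The effect of the plasmid on Esrp2 differed between the batches, by 0.87 on the log2 scale, and that on Klf4 by 0.37, both higher in batch 2 and both past the threshold of edgeR's interaction test (adjusted p = 0.00302 and 0.0057).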

How the results depend on the processing

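Counts were low, and values so less precise, for Grhl2 and Ehf, with at most 36 in any library, and for Ovol1 and Esrp1 in control cells. The fit with no batch term called 7 of the 10 genes higher, without Ovol2 and Cdh1, batch 1 alone also called 7, without Grhl2 and Ovol2, and a filter of 1 CPM called 8, since it leaves out Grhl2 and Ehf. All other tools, scalings and filters, batch 2 alone and the omission of each library called 9 higher and 0 lower. A fold threshold of 1 on the log2 scale left 5 of the genes higher and 1553 higher and 34 lower among all genes. The count of all genes called lower, 2828, was 1159 with no batch term, 1805 with factors from abundant genes, 1696 at an adjusted p under 0.01, 1583 in batch 1 alone and 1804 in batch 2 alone. With the replicate block in place of batch, 9 of the 10 genes were higher, 3724 of all genes were higher and 2560 lower, and of the named genes Rbfox2 alone lost its call (adjusted p = 0.0514).

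Ehf turned to -0.48 in batch 2 alone and ranged from -0.08 to 0.67 with 1 library left out. Without 1 library Foxa2 ranged from -0.04 to 0.01 and Gm31166 from -0.21 to 0.15. Foxa2 also turned to 0.03 with factors from abundant genes, 0.01 with the filter of 1 CPM and 0.07 in batch 1 alone, and Gm31166 to 0.03 with limma-voom and 0.01 in batch 2 alone. None of these was called. Leaving out 1 library ended the call of Marveld3 for all but Klf4 replicate 3, at log2 fold changes of 0.08 to 0.13, and that of Cdh2 for 6 of the 8. Zeb1 was called lower without control replicate 4 (-0.12). The test of the batches, added after the data had been seen, found 2 of the 10 genes lower in batch 2 with DESeq2 and 3 with factors from abundant genes. The causes of these changes were not tested.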
